A study of Mus musculus with 6 samples.

Results

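Bipolar cell genes were examined in mouse retinal explants that lacked Sall3, a Spalt-type zinc finger regulator of transcription, and in wild-type explants. The set held 33 genes chosen by symbol for their use as markers or working parts of bipolar cells. A gene was represented by its brightest transcript cluster, a group of exon array probes summarised as 1 value, over the mean of all 6 arrays. Of the 33 genes, 31 had such a cluster, out of 17463 genes tested. All 31 passed the filter on dim clusters. Bhlhe22 and Cabp5 were not analysed here. The knockout group held 3 arrays of Sall3 knockout retina and the other group 3 arrays of wild-type retina, both of strain C57BL/6 and mixed sex. Retinas were dissected at postnatal day 0, and after 7 days in culture the RNA of 3 retinas was pooled for each sample. The labels do not say how the knockout allele was made, nor whether samples came from separate litters, so the p-values cover no more than the spread of these samples, which may be technical.

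Bipolar cells carry signals from photoreceptors to amacrine and ganglion cells. ON types depolarise to light: glutamate from photoreceptors acts on the receptor mGluR6 and its G protein Go, which keep the channel TRPM1 shut until light lowers glutamate. OFF cone bipolar cells use ionotropic glutamate receptors instead and depolarise in the dark. Rod bipolar cells are an ON type that serves rods, and in the mouse bipolar cells are among the last retinal cells to form, largely after birth.

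No difference between genotypes in the 31 genes passed the test applied. In limma, 0 members passed an adjusted p of 0.05, as did 0% of all 75632 clusters, and 0 were under an unadjusted p of 0.05, against 1.6% of all gene rows. When 1 row per gene was fitted, 0 members again passed either threshold, against 0% of gene rows adjusted and 4.45% unadjusted. Changes, given throughout in log2 units as knockout minus wild-type, ran from -0.25 for Neto1 to 0.37 for Tacr3, and those of 19 of the 31 lay within 0.1 of 0. Their median was -0.02, and that of all gene rows was -0.01. The mean was lower in knockout for 18 members and higher for 13, where 54.7% of all gene rows were lower. This split turned with the scaling: with the values as deposited or median centred, 12 members were lower.

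The arrays set limits on what could be seen. The 95% interval of the change lay inside a 2-fold change for all 31 members. It lay inside a 1.5-fold change for 24 (77.4%), against 86.9% of all gene rows. The other 7 were Gnb4, Car8, Vsx1, Tacr3, Neto1, Cabp1 and Scgn. The standard error (SE) had a median of 0.13, against 0.11 over all gene rows, and that of Gnao1, the smallest, was 0.09. Cabp1 had the largest, 0.24. In pooled tissue, fewer bipolar cells and less RNA per cell cannot be told apart.

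**Figure D1:**
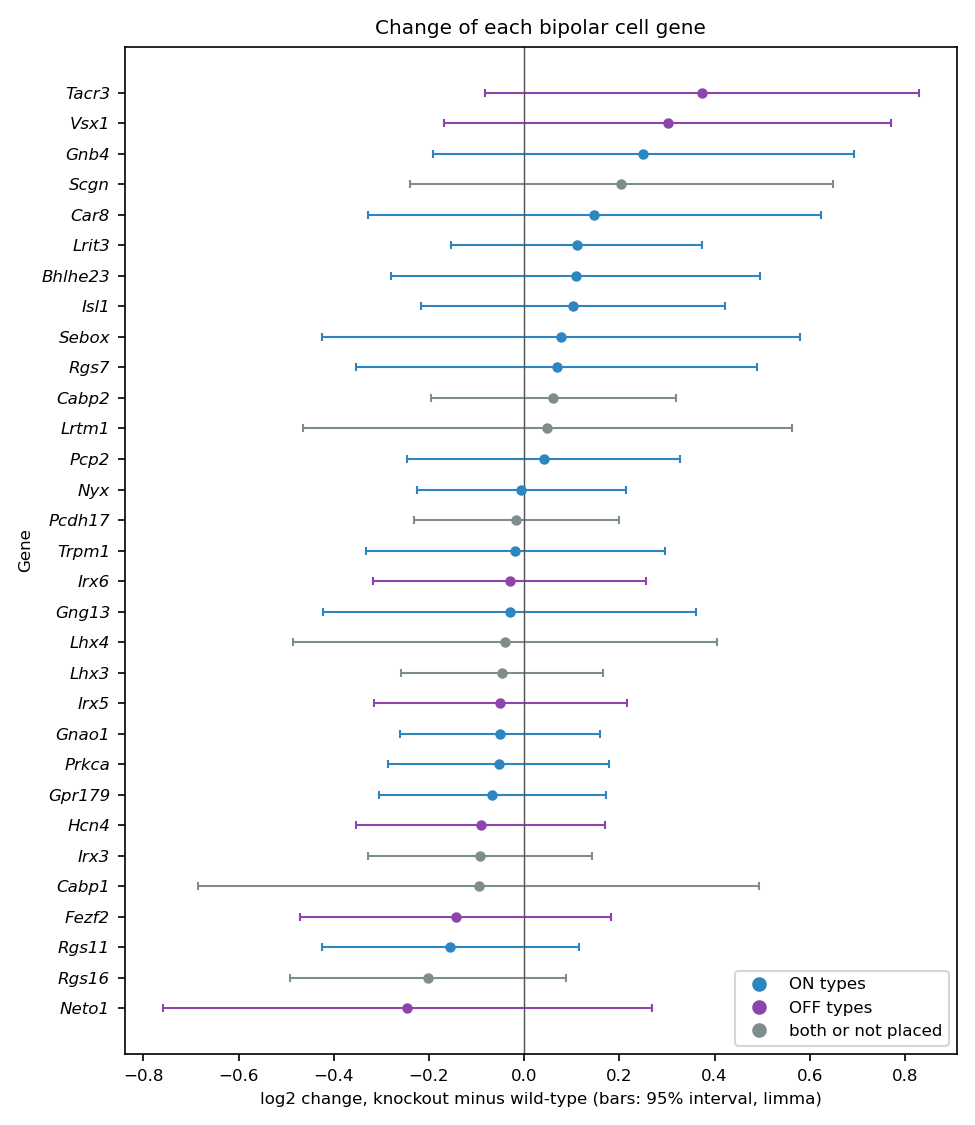
Change of each of the 31 bipolar cell genes in log2 units, knockout minus wild-type, with points for the estimate, bars for the 95% interval from limma and colour for the bipolar type. All bars cross 0, and the estimates run from -0.25 for Neto1 to 0.37 for Tacr3.

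Some facts of the arrays bear on these values. All 31 clusters had a mean above 5.87, the 95th percentile of 815 olfactory receptor genes, a family taken as a rough guide to signal without expression, although probes differ in brightness for reasons other than RNA. Their means ran from 5.95 to 10.42. Grm6 and Otx2, defining genes of the ON pathway and of photoreceptor and bipolar fate, were both measured. The cluster of Sall3 itself stood at 6.24, 6.05 and 6.13 in knockout arrays, against 6.21, 6.36 and 6.33 in wild-type arrays, and where its probes lie relative to the deleted part is not known. Knockout 1 stood apart from the rest, as given for the bipolar genes further on. On mouse assembly GRCm38, Gnb4, Gng13, Pcp2 and Lrtm1 overlap another protein-coding gene (Mfn1, Chtf18, Pet100 and Cacna2d3), and it is not known which probes could read both.

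Promoter sequence was taken from RefSeq windows on assembly GRCm38.p6 for 25 members, with 33 windows of 250 bases before a transcription start. They were searched on both strands for 3 motifs of 6 letters: GGATTA, read by the OTX2 and CRX homeodomain proteins; TAATTA, a core of many homeodomain sites; and CAGATG, a form of the E-box read by basic helix-loop-helix factors. The first stood in 4 of the 33 windows (12.1%), against 6.25% of 32851 windows in the table. TAATTA stood in 1 (3.03% against 4.84%), and the E-box in 5 (15.2% against 14.4%). The E-box windows belonged to 4 members, as overlapping windows of Pcp2 both held it and may share a site. The 4 members with the OTX2 and CRX letters were Trpm1, Isl1, Lrtm1 and Cabp2. Below are shown the windows of Trpm1 (chr7:64153585-64153834, plus strand, the first of its 2 starts) and Isl1 (chr13:116309689-116309938, minus strand), defining ON genes that hold a match, and of Tacr3 (chr3:134828757-134829006, plus strand), whose knockout arrays all lay above wild-type and which holds no match to these letters. They read from 5′ to 3′ and end at the start, with matches in capitals.
Trpm1: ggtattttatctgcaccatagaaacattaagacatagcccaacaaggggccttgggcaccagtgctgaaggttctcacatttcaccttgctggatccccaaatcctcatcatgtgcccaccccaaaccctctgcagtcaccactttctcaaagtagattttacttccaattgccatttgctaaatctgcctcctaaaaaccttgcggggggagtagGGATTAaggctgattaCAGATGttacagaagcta
Isl1: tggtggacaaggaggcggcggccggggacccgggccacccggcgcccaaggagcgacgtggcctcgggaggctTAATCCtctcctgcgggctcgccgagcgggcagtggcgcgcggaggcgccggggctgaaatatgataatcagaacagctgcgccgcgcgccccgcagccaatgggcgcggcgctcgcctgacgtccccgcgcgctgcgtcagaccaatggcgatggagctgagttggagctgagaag
Tacr3: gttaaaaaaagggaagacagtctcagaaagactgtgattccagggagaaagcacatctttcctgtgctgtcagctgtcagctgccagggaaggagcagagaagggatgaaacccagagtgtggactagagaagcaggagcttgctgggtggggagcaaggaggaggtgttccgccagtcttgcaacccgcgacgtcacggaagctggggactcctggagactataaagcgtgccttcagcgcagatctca
In Trpm1, GGATTA began 34 and CAGATG 18 bases before the start, without overlap. In Isl1 the other strand of the first motif began 177 bases before it.

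The mGluR6 cascade gave small values of both signs. Trpm1, whose product is the ON channel itself, stood at 8.07, 7.80 and 7.67 in knockout 1, 2 and 3, against 7.86, 7.88 and 7.85 in wild-type 1, 2 and 3. Knockout 1 was the highest and knockout 3 the lowest of the 6 arrays, and the wild-type arrays lay between them. The change was -0.02 (SE 0.13, 95% interval -0.33 to 0.30, limma adjusted p = 0.995), and -0.13 without knockout 1. Grm6, which encodes mGluR6 and is outside the 33, changed by 0.04 (SE 0.14).

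Proteins that hold the channel and receptor at the dendritic tips also gave small values. Lrit3, a leucine-rich repeat protein needed to place TRPM1, had 8.10, 8.14 and 7.99 in knockout arrays, against 8.10, 7.95 and 7.86 in wild-type arrays. The groups overlapped, and the change was 0.11 (SE 0.11, limma adjusted p = 0.933). Nyx, which encodes nyctalopin, another such protein, changed by -0.01 (SE 0.09), and Gpr179, an orphan receptor that anchors RGS proteins, by -0.07 (SE 0.10).

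Among the Go subunits, Gnao1 was 1 of 2 members whose groups did not overlap. This gene encodes the alpha subunit, which amacrine and other neurons also express. Its signal was 8.69, 8.64 and 8.68 in knockout arrays, against 8.71, 8.74 and 8.70 in wild-type arrays. Every knockout array stood lower than every wild-type array, as in 11.2% of gene rows, but the change was only -0.05 (SE 0.09, limma adjusted p = 0.964). Gnb4, a beta subunit of ON bipolar cells, had 7.23, 6.85 and 6.86 in knockout arrays, against 6.80, 6.94 and 6.45 in wild-type arrays. Knockout 1 was high and wild-type 3 low, and the change of 0.25 (SE 0.18, limma adjusted p = 0.898) was 0.13 without knockout 1 and 0.11 without wild-type 3. Its dimmer cluster, at a mean of 3.76, close to the filter level of 3.70 and under the olfactory receptor percentile, changed by 0.24. The gamma subunit Gng13 stood at -0.03 (SE 0.16).

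RGS7 and RGS11 speed the shut-off of Go and so the response to light. Rgs11 had 7.22, 7.03 and 7.11 in knockout arrays, against 7.33, 7.35 and 7.15 in wild-type arrays. Knockout 2 and 3 were the lowest, but knockout 1 lay above wild-type 3, and the change was -0.16 (SE 0.11, limma adjusted p = 0.894). Rgs7 stood at 0.07 (SE 0.17) and turned to -0.08 without knockout 1. Of 5 further cascade genes outside the 33, 0 passed, also unadjusted. Gnb3, Gnb5 and Rgs7bp changed by -0.01, 0.05 and 0.03. Rgs9bp, an anchor of RGS proteins that photoreceptors use too, had 10.30, 10.26 and 10.23 in knockout arrays, against 10.15, 10.09 and 9.48 in wild-type arrays, without overlap (1.7% of gene rows lay above in this way), with a change of 0.36 (SE 0.20). Wild-type 3 was the low array, and without it the change was 0.14.

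Of 5 rod bipolar markers, 4 had their highest signal in knockout 1. Prkca encodes protein kinase C alpha, the classical marker of these cells. It had 10.49, 10.33 and 10.37 in knockout arrays, against 10.43, 10.42 and 10.49 in wild-type arrays, a range narrow in both genotypes, and changed by -0.05 (SE 0.09, 95% interval -0.29 to 0.18, limma adjusted p = 0.965). Pcp2, a modulator of Go also found in ON cone bipolar cells, had 7.43, 7.14 and 7.15 in knockout arrays, against 7.19, 7.24 and 7.17 in wild-type arrays. Knockout 1 alone was high, and the change was 0.04 (SE 0.12, limma adjusted p = 0.979).

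Car8, which encodes a carbonic anhydrase-related protein, changed by 0.15 (SE 0.19) over all arrays and by -0.06 without knockout 1, where it stood at 9.14 against 8.56 and 8.48 in knockout 2 and 3. Sebox, a homeobox gene of rod bipolar cells, likewise changed by 0.08 (SE 0.20) and by -0.14 without that array. Bhlhe23, a basic helix-loop-helix factor that rod bipolar cells need to mature, changed by 0.11 (SE 0.16) and by -0.01 without it. Over these 5 genes the median on each array, relative to the wild-type mean, was 0.35 in knockout 1 and -0.06 and -0.08 in knockout 2 and 3, against -0.02, 0.06 and -0.03 in wild-type 1, 2 and 3.

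**Figure D2:**
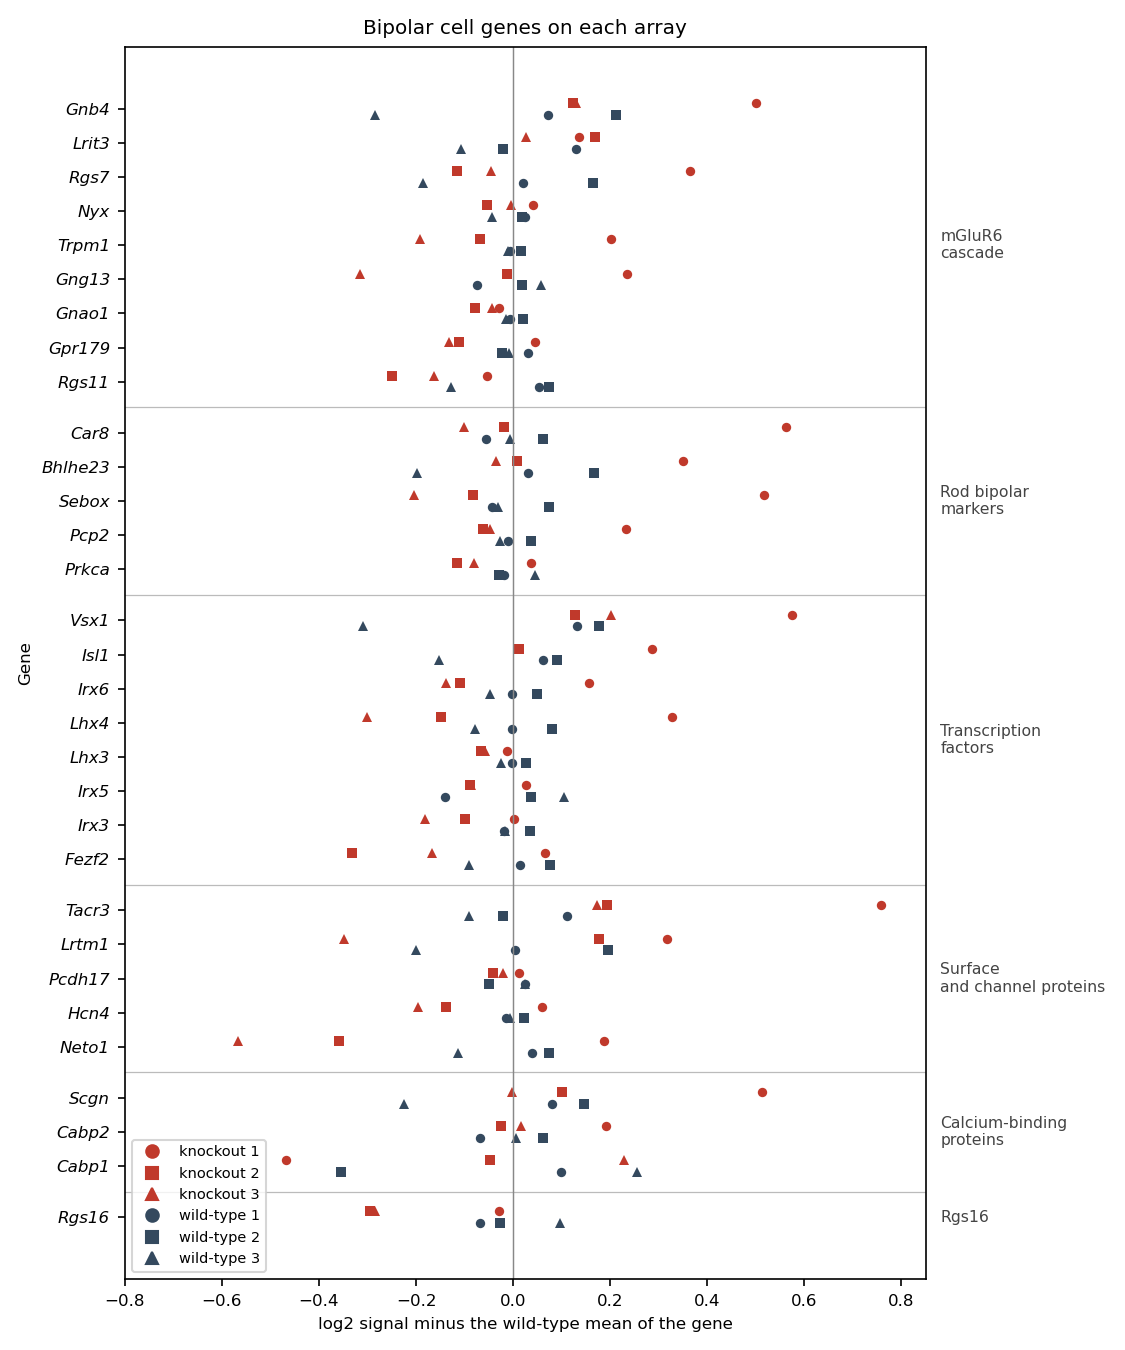
Signal of each bipolar cell gene on each array in log2 units minus the wild-type mean of that gene, grouped by role, with knockout arrays in red above wild-type arrays in blue. Circles, squares and triangles stand for samples 1, 2 and 3. The red circle, knockout 1, is the highest of the 6 arrays for 20 of the 31 genes.

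Transcription factors of bipolar types included the second largest positive change of the set. Vsx1, a homeodomain factor that OFF cone bipolar cells need for terminal differentiation, had 8.82, 8.38 and 8.45 in knockout arrays, against 8.38, 8.42 and 7.94 in wild-type arrays. Knockout 1 stood above the rest and wild-type 3 below it, while the other 4 arrays lay close together. The change was 0.30 (SE 0.19, 95% interval -0.17 to 0.77, limma adjusted p = 0.873), with 0.17 without knockout 1 and 0.15 without wild-type 3. Isl1, a LIM homeodomain factor of ON bipolar cells that ganglion and some amacrine cells share, had 9.32, 9.05 and 9.05 in knockout arrays, against 9.10, 9.13 and 8.88 in wild-type arrays. The same arrays were highest and lowest, and the change was 0.10 (SE 0.13, limma adjusted p = 0.953), or 0.01 without knockout 1 and 0.03 without wild-type 3.

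Fezf2, a zinc finger factor found in OFF bipolar cells, had 8.47, 8.07 and 8.24 in knockout arrays, against 8.42, 8.48 and 8.31 in wild-type arrays. Knockout 2 and 3 were the lowest arrays and knockout 1 stood among the wild-type ones, so the change of -0.14 (SE 0.13, limma adjusted p = 0.930) was -0.25 without knockout 1 and -0.05 without knockout 2. Among the Iroquois homeodomain factors, Irx3 had 6.92, 6.82 and 6.74 in knockout arrays, against 6.90, 6.95 and 6.90 in wild-type arrays, an overlap through knockout 1, with a change of -0.09 (SE 0.10, limma adjusted p = 0.937). Irx5 and Irx6, both of OFF cone bipolar types, stood at -0.05 (SE 0.11) and -0.03 (SE 0.12). The LIM factors of cone bipolar cells, Lhx3 and Lhx4, stood at -0.05 (SE 0.09) and -0.04 (SE 0.18). Of 6 fate genes outside the 33, 4 were measured and 0 passed, also unadjusted. Otx2, which bipolar cells and photoreceptors need, had 11.94, 11.90 and 11.96 in knockout arrays, against 11.99, 12.06 and 12.02 in wild-type arrays, without overlap at a change of -0.09 (SE 0.09). Neurod4 had 11.48, 11.17 and 11.14 in knockout arrays, against 11.22, 11.22 and 10.48 in wild-type arrays. Wild-type 3 was again low, and the change was 0.28 with it and 0.04 without it. Prdm8 stood at 0.03 and Prdm1 at -0.02.

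Genes at the cell surface held both ends of the range. Tacr3 encodes the neurokinin receptor NK3R, a marker of OFF cone bipolar cells. It had 8.41, 7.84 and 7.82 in knockout arrays, against 7.76, 7.63 and 7.56 in wild-type arrays. All knockout arrays lay above all wild-type arrays, in knockout 2 and 3 by little. The change was 0.37 (SE 0.19, 95% interval -0.08 to 0.83, limma adjusted p = 0.808), and 0.18 without knockout 1. It was the only member above without overlap, 1 of 31 against 1.7% of gene rows.

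Neto1, an auxiliary subunit of kainate receptors listed here with OFF types, lies on chromosome 18, as does Sall3. It had 8.01, 7.46 and 7.26 in knockout arrays, against 7.86, 7.90 and 7.71 in wild-type arrays. Knockout 1 was the highest and knockout 2 and 3 the lowest arrays. The change was -0.25 (SE 0.21, 95% interval -0.76 to 0.27, limma adjusted p = 0.922), with -0.46 without knockout 1 (limma unadjusted p = 0.0139), where 1.5% of gene rows were lower at an unadjusted p under 0.05. It was -0.09 without knockout 3.

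Hcn4, a hyperpolarisation-activated channel of an OFF cone bipolar type, had 8.70, 8.50 and 8.44 in knockout arrays, against 8.63, 8.66 and 8.63 in wild-type arrays. Here too knockout 1 was the highest and the others the lowest, with a change of -0.09 (SE 0.11, limma adjusted p = 0.948). Lrtm1, a leucine-rich repeat membrane protein, stood at 0.05 (SE 0.21), and its 3 dimmer clusters at -0.04, 0.23 and 0.35. The protocadherin Pcdh17 stood at -0.02 (SE 0.09) on its brightest cluster, with a mean level of 8.46. A second cluster of this gene, singled out after its values were seen, had 5.19, 5.15 and 5.16 in knockout arrays, against 4.83, 4.51 and 4.49 in wild-type arrays. It was higher in every knockout array, by 0.56 (SE 0.12, limma adjusted p = 0.594), at a mean of 4.89, under the 95th percentile of olfactory receptor genes.

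Calcium-binding proteins and Rgs16 completed the set. Scgn, which encodes secretagogin, a calcium sensor of cone bipolar cells, had 9.40, 8.98 and 8.88 in knockout arrays, against 8.96, 9.03 and 8.66 in wild-type arrays. Knockout 1 was high and wild-type 3 low, as for Vsx1 and Gnb4, and the change was 0.20 (SE 0.18, limma adjusted p = 0.927), or 0.05 without knockout 1, 0.09 without wild-type 3 and 0.31 without knockout 3. The calmodulin-like Cabp2 stood at 0.06 (SE 0.10). Its relative Cabp1 stood at -0.10 (SE 0.24) and was the only member for which knockout 1 lay below both other knockout arrays, while its second cluster, with a mean of 8.23, changed by 0.00059.

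Rgs16, another accelerator of G protein shut-off, had 9.52, 9.26 and 9.27 in knockout arrays, against 9.48, 9.52 and 9.65 in wild-type arrays. Knockout 2 and 3 were the lowest arrays, and knockout 1 overlapped wild-type. The change of -0.20 (SE 0.12, limma adjusted p = 0.858) was -0.29 without knockout 1 (limma unadjusted p = 0.0358) and -0.15 without wild-type 3.

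**Figure D3:**
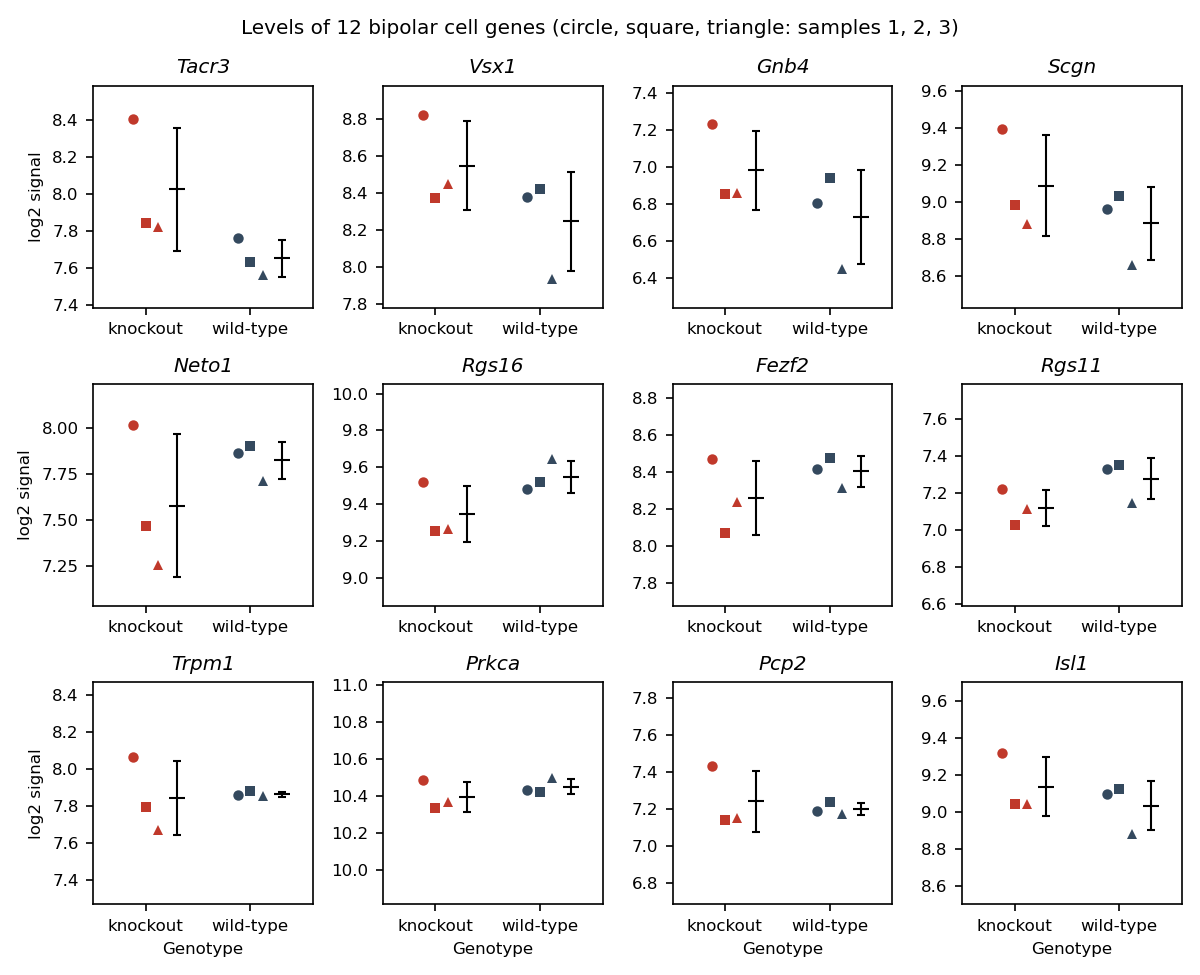
Signal of 12 bipolar cell genes in log2 units, knockout left of wild-type, with 1 symbol per array and bars for mean and SD (n = 3 each). The axes span the same width in log2 units. Tacr3 is the gene shown here whose knockout arrays all lie above the wild-type arrays.

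ON and OFF genes were set side by side. Of the 31, 15 were assigned to ON types, 7 to OFF types, and 9 to both or to neither. The median change was 0.04 for ON and -0.05 for OFF genes. On each array, relative to the wild-type mean, the ON median was 0.23, -0.06 and -0.05 in knockout 1, 2 and 3, against 0.02, 0.04 and -0.03 in wild-type 1, 2 and 3. The OFF median was 0.16, -0.11 and -0.14 in knockout arrays, against 0.02, 0.05 and -0.09 in wild-type arrays. Both medians were highest in knockout 1 and below 0 in knockout 2, knockout 3 and wild-type 3. ON minus OFF was 0.08, 0.05 and 0.09 in knockout arrays, against 0.0049, -0.01 and 0.06 in wild-type arrays, which overlapped. Within the OFF class, Tacr3 and Vsx1 stood highest of all 31 genes and Neto1 lowest.

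A further list of 16 genes used to tell bipolar types apart, of which 15 were measured, was also read by type. Of these, 0 passed when adjusted over all clusters, and 1 was lower at an unadjusted p, where 1.05% of gene rows were. That gene was Syt2, a synaptotagmin that marks OFF type 2 and ON type 6 cells, with 6.75, 6.53 and 6.54 in knockout arrays, against 6.98, 7.09 and 6.87 in wild-type arrays. The groups did not overlap, and the change was -0.37 (SE 0.11, 95% interval -0.65 to -0.09, limma adjusted p = 0.675). Grik1, the kainate receptor subunit through which OFF cells receive glutamate, had 7.43, 7.13 and 7.24 in knockout arrays, against 7.83, 7.67 and 7.36 in wild-type arrays. Knockout 1 overlapped wild-type 3 alone, and the change was -0.35 (SE 0.16, limma adjusted p = 0.791). Erbb4 and Prkar2b, of OFF type 3 cells, stood at 0.11 and 0.12, and Kcng4, of ON type 5 cells, at 0.08. The GABA receptor genes Gabrr1 and Gabrr2 both stood at -0.07. The list's median was -0.05.

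The knockout arrays differed more among themselves than the wild-type arrays for 25 of the 31 genes. The same share over all gene rows is not given here. Knockout 1 was the highest of 6 arrays for 20 of 31 bipolar genes (64.5%), against 45.6% of all gene rows. It lay above both other knockout arrays for 29 of 31, against 75.2%. Its excess over their mean had a median of 0.28 over the 31 genes and of 0.10 over all gene rows. It exceeded 0.4 for 9 genes (29.0%, against 8.66% of gene rows): Sebox at 0.66, Neto1 at 0.65, Car8 at 0.62, Tacr3 at 0.57, Lhx4 at 0.55, Scgn at 0.46, Rgs7 at 0.44, Vsx1 at 0.41 and Lrtm1 at 0.40. The SD over knockout arrays had a median of 0.17, and that over wild-type arrays one of 0.08. Over all gene rows these were 0.09 and 0.08. The low end was shared by several arrays: knockout 3 was lowest for 11 genes (20.7% of gene rows), knockout 2 for 8 (23.5%) and wild-type 3 for 8 (32.2%).

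Other cell types were read on the same arrays. The excess of knockout 1 over the other knockout arrays had a median of 0.21 for Müller glia genes, 0.10 for amacrine, 0.36 for microglia and -0.04 for rod genes. It was 0.26 for ganglion cell genes, 0.15 for progenitor, 0.14 for pigment epithelium, 0.11 for cone and 0.06 for horizontal cell genes. Summed on the linear scale, the 11 Müller glia genes ran from 9763 to 11467 in knockout arrays, against 9946 to 10695 in wild-type arrays. The 8 microglia genes ran from 1835 to 2592 in knockout arrays, against 2297 to 2502 in wild-type arrays. The 31 bipolar genes ran from 8937 to 10897 in knockout arrays, against 9275 to 9776 in wild-type arrays, with knockout 1 at the top of each of these knockout ranges. No listed gene stood at 0. The part of these cells in the bipolar values was not tested. Horizontal cell genes had list medians of -0.26, -0.28 and -0.30 in knockout arrays, against -0.04, 0.06 and -0.04 in wild-type arrays. Cone genes had -0.26, -0.25 and -0.30 in knockout arrays, against 0.09, 0.02 and -0.11 in wild-type arrays. In these lists knockout 1 stood near the other knockout arrays.

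Without knockout 1, the median of the 31 genes was -0.08 and that of all gene rows -0.05. The OFF median was then -0.12 and the ON median -0.06. The groups did not overlap for 15 members that were lower (48.4%) and 1 that was higher (3.23%), against 32.9% and 2.67% of gene rows, where 2 arrays face 3. This count was added after the data were seen. Knockout 1 exceeded the other knockout arrays by a median of 0.28 in these genes, against 0.10 over all gene rows. Leaving it out therefore moves them below wild-type more often, and the larger share is no separate result. Without knockout 1, the members below included Trpm1, Prkca, Pcp2, Fezf2, Neto1 and Rgs16, and the member above was Tacr3. With all arrays the counts were 1 lower (3.23%) and 1 higher (3.23%), against 11.2% and 1.7% of gene rows. In limma 0 members passed without knockout 1, and 2, both lower, were under an unadjusted p of 0.05, as were 1.5% of gene rows in that direction.

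**Figure D4:**
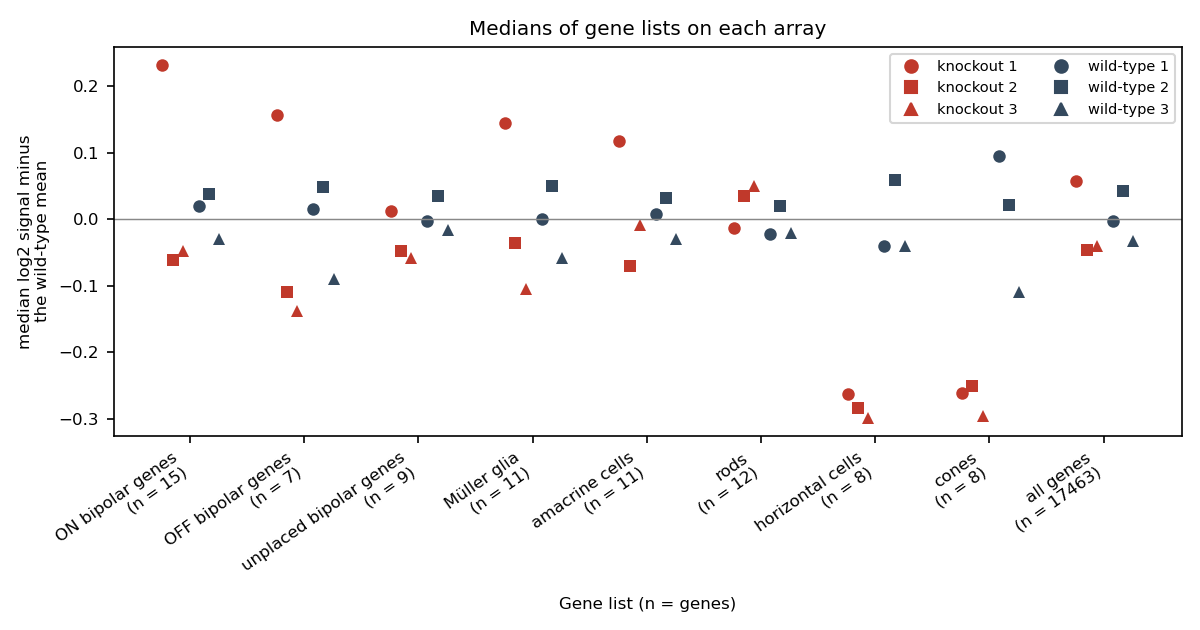
Median of each gene list on each array in log2 units relative to the wild-type mean of its genes, knockout arrays in red left of wild-type arrays in blue, with circles, squares and triangles for samples 1, 2 and 3. Knockout 1 stands at 0.23 for ON and 0.16 for OFF bipolar genes, above the other 5 arrays, and near the other knockout arrays for horizontal cells and cones.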

How the data were processed

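The deposited values were log2 signals per transcript cluster of an Affymetrix mouse exon array, 100843 clusters on 6 arrays, as inferred from their range of 1.48 to 13.86. Per the submitters' processing notes the tools were Affymetrix Expression Console and PLIER and the build mm8, with no role or version. Whether and how background was corrected and arrays normalized is not given in the sources used here. Array medians differed by up to 0.10, so values were quantile normalized. Clusters at or above the 25th percentile of the mean level (3.70) were kept, 75632 in all. Of all clusters, 22608 had 1 gene symbol, 1462 several and 76773 none here; 22101 names were updated through RefSeq identifiers (GRCm38). Levels of different clusters depend on their probes. They served only to choose each gene's brightest cluster, to filter, for linear sums over lists, and as a rough guide against olfactory receptor genes. In the sums, bright clusters weigh most. Precision is limited by 3 arrays per group.

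Genotypes were compared by a two-sided moderated test (lmFit, then eBayes; limma 3.58.1 under R 4.3.3) over all kept clusters with Benjamini-Hochberg adjustment, tested on simulated data beforehand. Alternatives were other scalings, filters and variance models, array weights, the sample number as a block, each array left out, a fit of 1 row per gene and averaging all clusters of a gene. The comparison without overlap and without knockout 1, and each array left out for bipolar genes outside the 33, were added after seeing the data. Every array's values are given for members without overlap, the 10 others of smallest p and the defining markers. Members, type classes and lists were chosen with earlier results of these data known. Figures used matplotlib 3.10.9 in Python 3.11.15.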

Additional observations from a re-analysis of the deposited data

How the results depend on the processing

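The number of members passing an adjusted p of 0.05 in limma was 0 in every setting tried, also at an adjusted p of 0.1 and with any array left out. At an unadjusted p under 0.05 the number was 0, except 2 with array weights (Neto1 and Rgs16) and 1 with the mean of a gene's clusters (Pcdh17), and it ran from 0 to 2 with an array left out, the 2 again being Neto1 and Rgs16 without knockout 1. Members without overlap numbered 2, and 16 without knockout 1, an array that stood high in these genes. The median of the members stayed within the spread of its arrays throughout, as did the ON and OFF medians. ON minus OFF, 0.09 with all arrays, was 0.044 with array weights and ran from 0.051 to 0.14 with an array left out.

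Of 31 members, 16 kept their sign in every setting tried. The others had changes of at most 0.15 in size. With values as deposited, the sign turned for Trpm1 (0.025), Nyx (0.0020), Gng13 (0.0053), Irx6 (0.0063), Lhx4 (0.0041) and Pcdh17 (0.031), and with median centring for the same genes (0.026, 0.0036, 0.0069, 0.0079, 0.0057 and 0.033). With array weights, which gave knockout 1 a weight of 0.39, it turned for Rgs7 (-0.080), Car8 (-0.0069), Pcp2 (-0.035), Bhlhe23 (-0.020), Sebox (-0.089), Lrtm1 (-0.085) and Cabp1 (0.11). With the mean of its clusters Pcdh17 stood at 0.27, its dimmer cluster being the higher in knockout. With an array left out, Trpm1 ran from -0.13 to 0.067, Nyx from -0.029 to 0.018, Gng13 from -0.16 to 0.11, Rgs7 from -0.080 to 0.16, Car8 from -0.060 to 0.27, Pcp2 from -0.055 to 0.092, Bhlhe23 from -0.013 to 0.19, Sebox from -0.14 to 0.22, Irx5 from -0.12 to 0.0021, Irx6 from -0.12 to 0.023, Lhx4 from -0.22 to 0.090, Lrtm1 from -0.085 to 0.25, Cabp1 from -0.27 to 0.090 and Cabp2 from -0.0035 to 0.10. Among 24 bipolar genes outside the members, where leaving out an array was added after seeing the data, Grm6 ran from -0.084 to 0.12, Gnb3 from -0.069 to 0.035, Rgs7bp from -0.045 to 0.075, Prdm8 from -0.045 to 0.073, Prdm1 from -0.080 to 0.012, Gabrr1 from -0.28 to 0.10, Gabrr2 from -0.26 to 0.052, Kcng4 from -0.050 to 0.23, Erbb4 from -0.024 to 0.18, Htr3a from -0.0021 to 0.046, Chrm2 from -0.0085 to 0.24, Slitrk5 from -0.17 to 0.036 and Lrrtm1 from -0.068 to 0.087. These were the 13 of the 24 whose sign turned. Among the rest, Syt2 ran from -0.44 to -0.32 and Grik1 from -0.48 to -0.25. The cause of the turns was not tested.

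With the sample number as a replicate block, 0 members passed and 0 were under an unadjusted p of 0.05. The labels do not say that a number marks a shared litter or day. Over all gene rows, same-numbered arrays did not all deviate together: r was 0.13, -0.15 and 0.21 for numbers 1, 2 and 3. Knockout 1 correlated best with wild-type 2 (0.23), and knockout 2 and 3 with wild-type 3 (0.19 and 0.21). Against each wild-type array, knockout 2 and 3 had the opposite sign to knockout 1, so these matches are not separate facts. They cannot decide whether the numbers mark pairs. The files hold no detection calls, which limits what can be said of dim clusters such as that of Nyx.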
